A study of Mus musculus with 4 samples.

Results

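The cells described here are inhibitory neuroblasts with *Sp8* or *Prokr2*, young GABAergic neurons of the mouse forebrain at postnatal day 5. They were chosen by their UMIs, the unique molecular identifiers that count captured transcripts. A barcode was a member if it passed the filters of depth (2000 to 40000 UMIs), of gene number (1000 or more) and of mitochondrial UMIs (10% or less) and if *Dlx1*, *Dlx2*, *Dlx5* and *Gad2* gave at least 3 UMIs together and *Sp8* and *Prokr2* at least 1. It also had 0 UMIs of the division genes *Mki67* and *Top2a*, of *Pdgfra* (oligodendrocyte precursors) and of *Neurod2* and *Neurod6* (excitatory neurons), and at most 1 UMI of the astrocyte genes *Aqp4* and *Gja1*. There were 1769 members among 17623 cells that passed the filters and 27742 barcodes in all. Because these genes chose the cells, their levels are given as a description, and every test was made on other genes.

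The study asked what the loss of 1 copy of *Chd8*, a chromatin remodeler gene linked to autism, does when it begins midway through fetal neurogenesis. Controls were NestinCreERT2/tdTomato/Chd8+/+ mice and mutants were NestinCreERT2/tdTomato/Chd8+/F mice, all C57BL/6, with 2 libraries per genotype and the cells of 3 mice pooled in each. Both genotypes carried the tamoxifen-activated Cre driven by *Nestin*, a gene of neural progenitor cells, and the tdTomato reporter, and tamoxifen was given at embryonic day 14.5 to mark progenitors and their descendants, which were sorted by tdTomato. The sorted cells that passed the filters also held 367 gated as microglia, which do not arise from neural progenitors. The tissue, labelled forebrain, was the telencephalon with cortex and striatum, without the olfactory bulb, the destination of many such neuroblasts. Since mice were pooled, p-values measure the spread between libraries and not that between animals. Matrix headers named Cell Ranger 7.0.0 for both replicate 1 libraries and 5.0.1 for both replicate 2 libraries, and the version 7 default counts intronic reads. *Xist*, the transcript of the inactive X chromosome, was at 0 CPM (UMIs per 1000000 UMIs of the summed cells) in the neuroblasts of both replicate 1 libraries, at 2660 CPM in replicate 2 of the controls and at 2410 in replicate 2 of the mutants, although the reporting summary names male mice, so that the *Xist* level and the software version moved together between the replicates. Results are therefore given for each library, and 4 values in a row always stand for control replicates 1 and 2, then mutant replicates 1 and 2.

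*Sp8* encodes a zinc-finger transcription factor of the dorsal lateral and caudal ganglionic eminences, the ventral zones that make olfactory bulb interneurons and a class of cortical interneurons. *Prokr2* encodes the receptor for prokineticins, secreted proteins that attract neuroblasts to the bulb along the rostral migratory stream. In such lineages progenitor cells stop dividing, migrate in chains as doublecortin-positive neuroblasts and acquire synaptic and transmitter genes late. In mm10 with the GENCODE vM21 annotation *Sp8* lies at chr12:118846329-118852576 on the plus strand and *Prokr2* at chr2:132337733-132385447 on the minus strand.

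The neuroblasts numbered 742, 163, 719 and 145 in the 4 libraries. Their median depth was 7028, 5158, 6776 and 5845 UMIs, and their summed counts were 5444232, 883130, 5208549 and 861473 UMIs. The replicate 1 libraries thus held most of the members and most of their UMIs. Median mitochondrial shares were 1.75%, 5.03%, 2.16% and 4.13%, higher in replicate 2 in both genotypes. Among all passing cells 39 barcodes occurred in more than 1 library over the pairs of libraries, and among neuroblasts 1 did.

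Of the members, 803 had *Sp8* UMIs only, 290 had *Prokr2* UMIs only and 676 had both. 356 neuroblasts (20.1%) sat at the limit with 1 UMI of the pair, 345 had 2 and 1068 had 3 or more, whereas 564 non-dividing inhibitory cells that met all other parts of the rule had 0 (called negative cells below). At the other limits, 53 members had exactly 3 UMIs of the inhibitory genes against 35 cells outside with 2, 104 had 1 astrocyte UMI against 16 outside with 2, and 129 cells were outside for a single division UMI. *Sp8* gave 303, 422, 304 and 399 CPM. *Prokr2* gave 183, 240, 203 and 311 CPM. Both genes had their lowest and second lowest values in the replicate 1 libraries.

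The label's other markers, *Pbx3* and *Dlx6os1*, lie outside the rule but were chosen with earlier results of these data known. Their levels describe the cells and are no independent check of the label. *Pbx3*, a homeobox gene of the lateral eminence and its bulb lineage, gave 1100, 453, 1060 and 572 CPM. *Dlx6os1*, a noncoding RNA that overlaps *Dlx6* on the opposite strand, gave 1360, 1290, 1290 and 936 CPM. UMIs of *Dlx6os1* were found in 97.2% of neuroblasts (median 6608 UMIs a cell) against 2.03% of oligodendrocyte precursors (median 10024), and of *Pbx3* in 63.7% against 28.9%. With every cell thinned to 2000 UMIs the *Dlx6os1* shares were 86.3% and 0.613%, and the *Pbx3* shares 52.3% and 8.42%. The precursors had been gated on 0 UMIs of the 4 inhibitory genes, so that this contrast was fixed in part by the choice of cells. Cells gated as microglia, without such a limit, held *Dlx6os1* in 5.45% and *Pbx3* in 46.3% (2.72% and 16.6% when thinned). Negative cells also held *Dlx6os1* (85.5%) and *Pbx3* (57.8%), as did dividing inhibitory cells (85.0% and 55.4%), and neither gene checked the part of the label that rests on *Sp8* and *Prokr2*. Markers of other cell types were low in the sums but not absent. The 8 microglia genes summed to 89.1, 10.2, 91.0 and 9.29 CPM, with no gene at 0 in replicate 1. *Csf1r* and *P2ry12* were at 0 in control replicate 2, and *Csf1r*, *C1qb*, *C1qc*, *Cx3cr1* and *Tyrobp* in mutant replicate 2. The 10 vascular genes summed to 6.06, 323, 5.38 and 250 CPM, with *Rgs5* the most abundant (207 CPM in control and 178 in mutant replicate 2), and 174 of the 183 *Rgs5* UMIs in control replicate 2 and 148 of 153 in mutant replicate 2 came from 1 cell each. The 12 astrocyte genes summed to 372, 1040, 292 and 1300 CPM, with *Apoe* the most abundant, and were high in both replicate 2 libraries. The 10 excitatory genes stayed between 2.26 and 9.37 CPM and the 10 oligodendrocyte genes between 85.4 and 183 CPM, with *Pdgfra*, *Neurod2* and *Neurod6* at 0 by the rule.

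Neuroblasts made up a larger part of the replicate 1 than of the replicate 2 libraries. In controls they were 13% of passing cells in replicate 1 (95% interval 12.1 to 13.9) and 5.48% in replicate 2 (4.69 to 6.36). In mutants they were 12.7% (11.8 to 13.6) and 4.42% (3.74 to 5.18). Mutants minus controls came to -0.676 percentage points, -0.289 within replicate 1 and -1.06 within replicate 2 (exact permutation test, two-sided p = 0.667, n = 2 libraries a genotype). Among non-dividing inhibitory cells the neuroblasts were 72.6%, 75.5%, 78.2% and 82.9%, both mutants above both controls. That difference was 6.47 points (5.55 within replicate 1 and 7.39 within replicate 2, exact permutation p = 0.333, the smallest this design allows). It fell to 2.35 points (exact permutation p = 0.667) when cells were thinned to 2000 UMIs before the rule was applied, with 49.5%, 57.1%, 52.4% and 58.9% then, the mutant still the higher within each replicate (by 2.94 and 1.75 points). The intervals (Clopper-Pearson, exact) include only the error of counting.

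**Figure D1:**
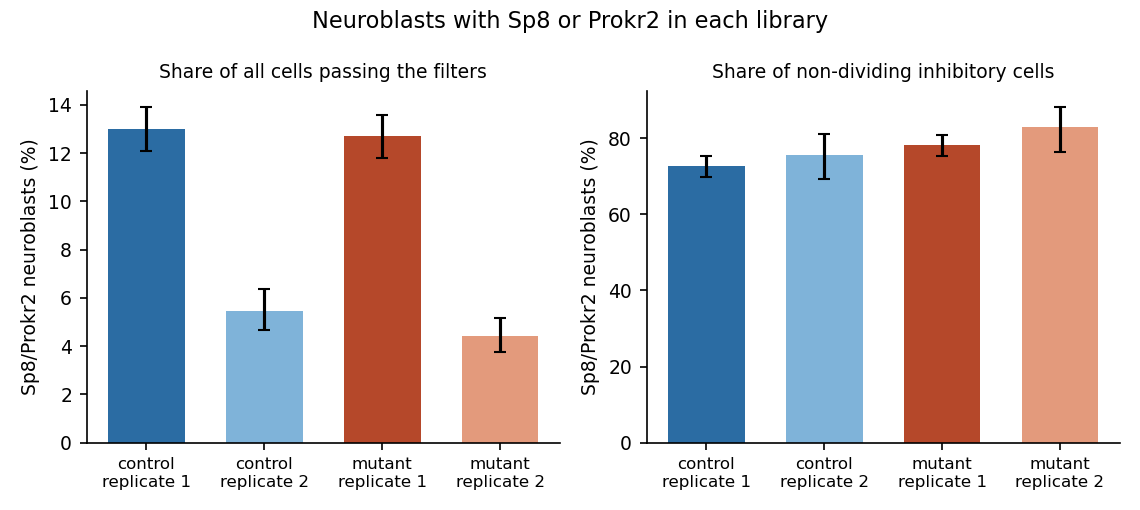
Bars give the percentage of neuroblasts with *Sp8* or *Prokr2* in each library, among all cells passing the filters (left) and among non-dividing inhibitory cells (right), with exact 95% intervals. The left panel separates replicate 1 (13% and 12.7%) from replicate 2 (5.48% and 4.42%), and the right panel runs from 72.6% to 82.9%.

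The first comparison set the neuroblasts against the 564 negative cells of the same libraries, to show which other genes accompany *Sp8* and *Prokr2*. Neuroblasts were higher in 13 of 17 factors of the olfactory bulb lineage, and the negative cells were higher in 10 of 12 genes of striatal projection neurons. Some striatal genes passed the filter on low counts only through the negative cells, since 9 of the 18 passed in neuroblasts alone. Of 10614 genes tested outside the rule, 981 (9.24%) were higher and 1098 (10.3%) lower in neuroblasts (edgeR quasi-likelihood test with a library block, Benjamini-Hochberg adjusted p under 0.05). Scaling by library totals in place of TMM moved the split to 589 higher and 1395 lower. The negative cells were few in replicate 2 (53 and 30) against 280 in control replicate 1 and 201 in mutant replicate 1, and a negative cell may carry *Sp8* or *Prokr2* below detection, with a median depth of 6046 UMIs.

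Of 18 bulb lineage factors 17 were tested, and 13 were higher, 2 lower and 2 not past the threshold. The list's median log2 change was 0.55 against 0.032 for all genes tested. *Etv1*, an ETS transcription factor of bulb interneurons (chr12:38779380-38870484, plus strand), gave 470, 433, 477 and 525 CPM in neuroblasts and 140, 72.3, 170 and 152 CPM in negative cells. The populations did not overlap, and the log2 change was 1.83 (SE 0.11, adjusted p = 7.81e-12). *Pbx3* was 0.55 higher (SE 0.08, adjusted p = 2.67e-05) and *Dlx6os1* 0.84 (SE 0.08, adjusted p = 2.7e-08), both in 4 of 4 libraries, but with cells thinned to 2000 UMIs *Pbx3* no longer passed (0.16, adjusted p = 0.465). Both had been picked as markers of these cells with earlier results known, so that their rise is no independent support for the label. *Meis2*, a homeobox gene of the whole lateral eminence, rose by 0.53 and *Nfib* by 0.67. *Zfp503*, a striatal zinc-finger gene that was also on this list, was 4.72 lower, at 0.576 to 2.32 CPM in neuroblasts and 19.0 to 48.2 in negative cells. In neuroblasts alone 15 of the 18 factors passed the filter on low counts, so that a fall in a gene as low there as *Zfp503* was favoured by that filter. *Pax6*, which specifies periglomerular cells, was 1.37 higher. *Pax6*, *Zfp503* and, in the rest of this comparison, *Robo1*, *Robo2*, *Isl1*, *Lhx6*, *Dcx*, *Syt1* and *Slc12a5* were chosen after their values were seen.

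All 6 genes of bulb interneuron subtypes that could be tested passed the threshold, 4 higher and 2 lower. *Calb2*, the calretinin gene of periglomerular and granule cells, gave 68.0, 233, 85.4 and 167 CPM in neuroblasts and 24.8, 81.3, 38.0 and 78.5 CPM in negative cells. It was higher in neuroblasts in each library, by 1.41 on the log2 scale (SE 0.13, adjusted p = 1.26e-08), although the replicates lay far apart. *Synpr*, a synaptic vesicle protein gene, was 1.32 higher and *Gng4*, a G-protein subunit gene of granule cells, 1.01 higher. *Pcp4*, a calmodulin-binding protein gene abundant in striatal neurons, was 2.84 lower.

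Among genes of at least 50 CPM the 10 largest increases included *Etv1* and *Spon1*, which encodes an extracellular matrix protein of axon guidance. *Spon1* gave 546, 238, 468 and 275 CPM against 155, 69.3, 170 and 73.6 (log2 change 1.76, SE 0.10). *Robo2*, a Slit receptor gene with a smaller change, gave 2330, 668, 2230 and 741 CPM against 1070, 184, 968 and 240 (1.4, SE 0.10). In both the replicate 1 libraries were the higher, and within each replicate the populations did not overlap. The others of the 10 were *Parm1* (2.03), *Pls3*, an actin-bundling protein gene (1.90), *Bambi*, a decoy receptor gene for TGF-beta ligands (1.83), the potassium channel gene *Kcnd3* (1.80), *Brinp1* (1.61), *Fam171b* (1.5), *Adamtsl1* (1.46) and the phosphatase gene *Dusp4* (1.45). Their adjusted p lay between 9.53e-12 for *Kcnd3* and 2.76e-06 for *Bambi*.

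Striatal genes went the other way. Of 18 genes of striatal projection neurons 12 could be tested, and 10 were lower in neuroblasts, *Meis2* was higher and 1 did not pass, with a median of -2.1. In neuroblasts alone 9 of the 18 passed the filter on low counts. The others were tested through the negative cells, which favoured a fall, as for *Isl1* with 8, 2, 1 and 0 UMIs in neuroblasts. *Foxp1* gave 143, 62.3, 166 and 131 CPM in neuroblasts and 538, 229, 556 and 442 in negative cells. It was below every negative value in all 4 neuroblast samples and fell by 1.74 on the log2 scale (SE 0.08, adjusted p = 2.12e-13), and its relative *Foxp2* fell by 1.70. *Six3*, a homeobox gene of indirect-pathway striatal neurons, was at 4.96, 3.4, 1.34 and 2.32 CPM in neuroblasts against 64.5, 346, 141 and 290, a log2 change of -5.27 (SE 0.28). *Rarb*, a retinoic acid receptor gene, fell by 4.15 and *Bcl11b*, which maintains striatal neurons, by 1.39. *Isl1*, a factor of the direct pathway, fell by 4.90. A *Six3* UMI was found in 35 of 280 negative cells in control replicate 1 and in 37 of 201 in mutant replicate 1, and in replicate 2 in 16 of 53 in the control and 9 of 30 in the mutant.

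Genes of other interneuron origins were divided. Of 14 medial eminence genes 11 were tested, 2 higher and 5 lower (median -1.0), and of 12 caudal eminence genes 9 were tested, 2 higher and 4 lower (median -0.048). In neuroblasts alone 8 medial and 7 caudal eminence genes passed the filter on low counts, so that some falls were favoured by that filter. *Lhx6*, the LIM homeobox gene of medial eminence interneurons, gave 1.65, 0, 2.5 and 2.32 CPM in neuroblasts against 15.9, 87.3, 24.7 and 4.91, a fall of 3.54, but in mutant replicate 2 it rested on 1 UMI in 1 negative cell. All 12 neuroblasts with an *Lhx6* UMI had *Prokr2* UMIs only. They were 4.14% of the 290 such members, close to the 4.26% of negative cells, so that by share of cells the fall did not hold there. *Reln*, the secreted glycoprotein gene of superficial cortical interneurons, gave 1.10, 1.13, 3.07 and 1.16 CPM against 108, 81.3, 15.5 and 9.81, a fall of 4.68 (SE 0.42). *Reln* was lower in each library, and the negative controls were higher than the negative mutants. *Prox1*, a caudal eminence factor, fell by 0.45 (adjusted p = 0.0383), a call lost under 5 of the alternatives tried, whereas *Adarb2*, another caudal eminence gene, did not pass (0.17, adjusted p = 0.258). *Zeb2*, on the medial eminence list, was 0.94 higher.

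Genes of neuronal state were divided. Of 29 migration genes tested 10 were higher and 8 lower. *Ncam1*, whose polysialylated protein lets chains of neuroblasts slide, was 0.60 higher and *Dcx*, the doublecortin gene, 0.65 higher, while *Erbb4*, a neuregulin receptor gene, differed by 0.00 (SE 0.09, adjusted p = 0.994). *Robo1* gave 192, 22.6, 191 and 16.3 CPM against 1540, 87.3, 1270 and 58.9, a fall of 2.71 (SE 0.11), so that the Slit receptors *Robo1* and *Robo2* changed in opposite directions. Of 26 maturing neuron genes 7 were higher and 9 lower (median -0.26), with *Nrxn3* 0.76 higher, *Stmn2* 0.80 higher and the vesicle calcium sensor gene *Syt1* 2.14 lower. The GABA list moved little, 1 of 8 genes higher (*Gad1*, 0.39, lost with DESeq2, with cells thinned to 2000 UMIs or without either replicate 1 library) and 1 lower (*Slc12a5*, the chloride exporter gene, -1.73). Of 20 cell cycle genes tested 1 was higher (*Ccnd2*, 0.59) and 7 were lower. Among markers of other cell types, 5 of 9 oligodendrocyte genes and 2 of 9 astrocyte genes were lower in neuroblasts, and their part in the differences was not tested.

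**Figure D2:**
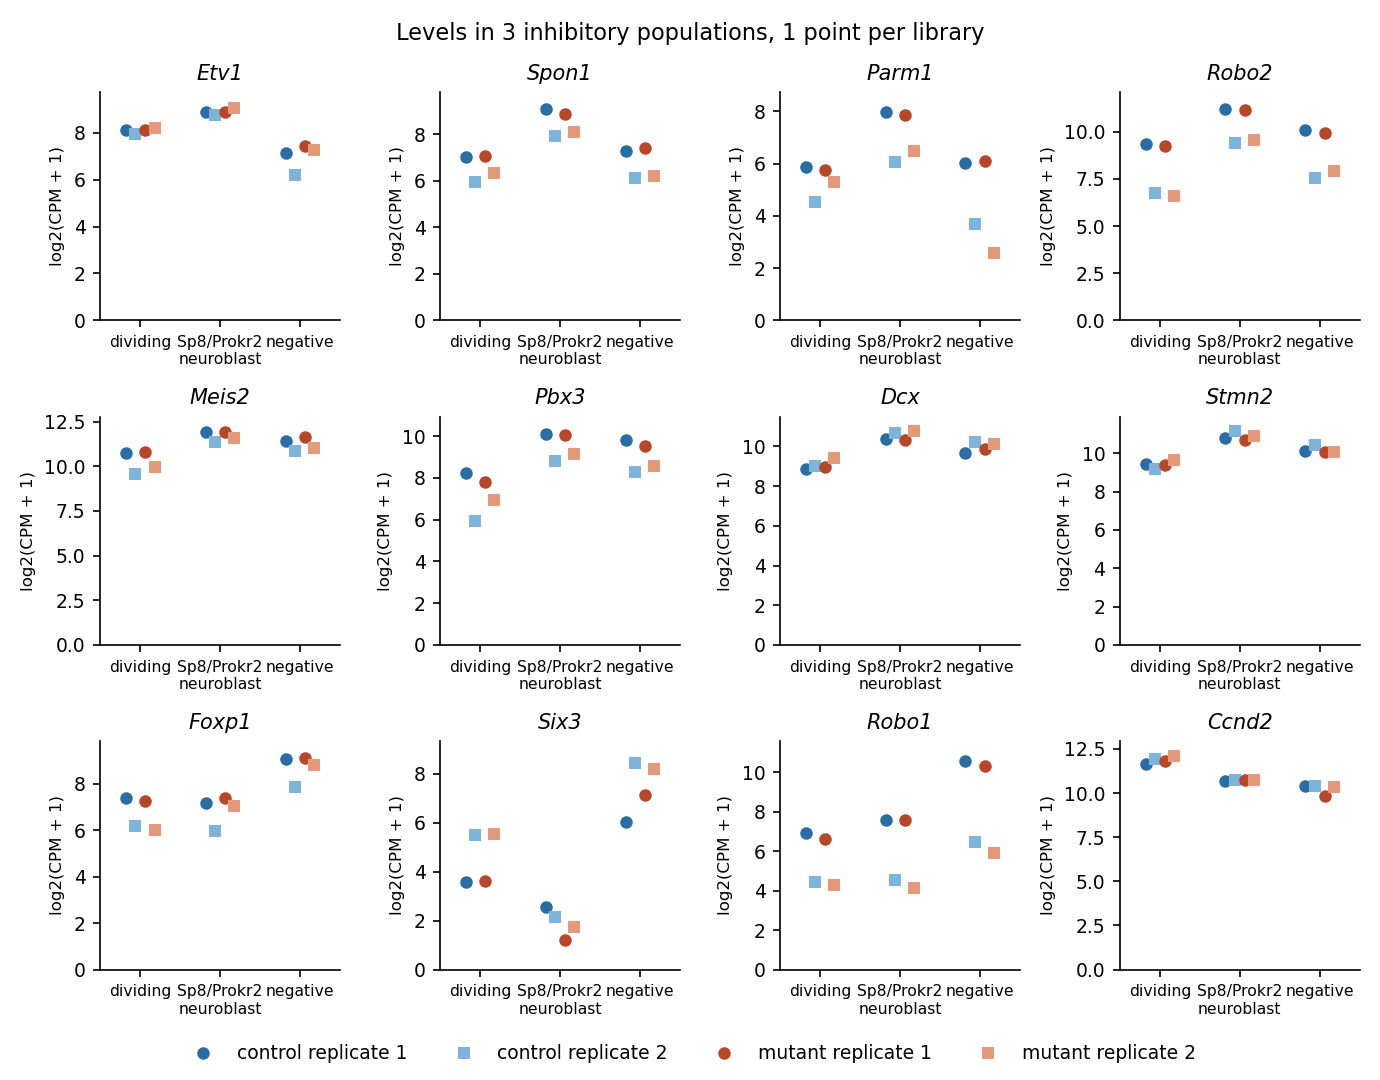
Each panel plots 1 gene as log2(CPM + 1) of UMIs summed per library in dividing inhibitory cells, *Sp8*/*Prokr2* neuroblasts and negative cells, with control libraries in blue, mutants in red, circles for replicate 1 and squares for replicate 2. *Etv1*, *Spon1*, *Parm1* and *Robo2* were highest in neuroblasts within each replicate, *Six3* and *Robo1* were highest in negative cells, and *Ccnd2* in dividing cells.

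The second comparison set the neuroblasts against 681 dividing inhibitory cells, which met the same limits for inhibitory and other cell type genes but had at least 2 UMIs of *Mki67* and *Top2a*, whether or not they had *Sp8* or *Prokr2*. UMIs of *Sp8* were common there and those of *Prokr2* were rare. *Sp8* UMIs were found in 63.6%, 63.8%, 68.5% and 65.0% of dividing cells and *Prokr2* UMIs in 6.29%, 0%, 6.67% and 5%. The 0 of 69 cells in control replicate 2 allows a share of cells with a *Prokr2* UMI of up to 5.21% (upper end of the exact 95% interval), and does not limit the share that expresses the gene. In cells that should lack it, *Sp8* UMIs were found in 4.09% of those gated as microglia (median 11151 UMIs, against 15094 in dividing cells), and in 1.34% of oligodendrocyte precursors (median 10024) and 4.6% of excitatory neurons (median 12006), both gated on 0 UMIs of the inhibitory genes. Thinned to 2000 UMIs, *Sp8* was in 27.6% and *Prokr2* in 1.62% of dividing cells, in 0.817% and 0.272% of the microglia, and in 0.383% and 0.613% of the precursors.

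Away from these genes, the dividing cells and the neuroblasts differed across much of the transcriptome, with 3937 of 12445 genes (31.6%) higher in neuroblasts and 3389 (27.2%) lower. All 33 cell cycle genes outside the rule were lower, with a median log2 change of -4.1 against 0.088 for all genes, although absence of division UMIs was part of the choice. In neuroblasts alone 26 of the 33 passed the filter on low counts, and the others were tested through the dividing cells, which favoured a fall. The smallest falls were *Cdk4* at -1.03 and *Ccnd2* at -1.10. *Ccnd2*, a cyclin gene of entry into the cell cycle, remained at 1660, 1690, 1740 and 1700 CPM in neuroblasts against 3260, 3900, 3580 and 4360. *Ube2c* fell by 4.94 and *Hmgb2* by 3.94. Among genes of at least 50 CPM the 10 largest falls included the histone gene *Hist1h3b* (-8.21), the mitotic kinase gene *Aurkb* (-7.58), the cyclin gene *Ccna2* (-7.27), the kinetochore gene *Spc25* (-6.77), the thymidine kinase gene *Tk1* (-6.68) and *Rsph1*, a gene of motile cilia (-6.77). Of the ependymal markers, *Foxj1* fell by 3.60 and *Tmem212* by 3.80. Of 9 oligodendrocyte genes 5 were higher and 2 lower in neuroblasts (median 0.9), and of 9 astrocyte genes 2 were higher and 4 lower (median -0.26). The part of such RNA in this comparison was not tested.

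Newborn neuron genes were divided. Of 20 newborn neuron genes 7 were higher and 11 lower. *Insm1*, which drives the last divisions, gave 79.4, 53.2, 87.4 and 56.9 CPM in neuroblasts and 380, 264, 352 and 315 in dividing cells, a fall of 2.13 (SE 0.09, adjusted p = 2.97e-14), and *Vim*, an intermediate filament gene of radial glia, fell by 1.33. *Sox11* differed by 0.06 (SE 0.06, adjusted p = 0.339), and *Stmn1* fell by 0.34. In every library *Insm1* was far lower in neuroblasts, whereas *Sox11* went up in some libraries and down in others.

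Genes of maturing neurons mostly rose. Of 26 maturing neuron genes 22 were higher and 1 lower (median 1.5), of 30 migration genes 18 were higher and 8 lower (median 0.75), and of 8 GABA genes 5 were higher and 1 lower (median 1.1). *Gad1*, which makes GABA, gave 396, 215, 376 and 219 CPM in neuroblasts and 126, 68.6, 142 and 71.0 in dividing cells, a rise of 1.62 (SE 0.08, adjusted p = 8.38e-13). *Slc32a1*, the vesicular GABA transporter gene, rose by 1.12, while *Slc12a2*, which loads young neurons with chloride, fell by 0.56. *Dcx* rose by 1.51, *Tubb2b* by 1.32, *Tubb3* by 0.98 and *Erbb4* by 2.72, and *Nrp2*, a semaphorin receptor gene, gave 41.0, 62.3, 37.1 and 72.0 CPM against 5.24, 4.65, 5.11 and 5.47, a rise of 3.12. *Marcks* fell by 0.38. Every one of these genes had the same direction in 4 of 4 libraries.

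Of 17 bulb lineage factors 9 were higher and 4 lower in neuroblasts. *Pbx3* rose by 2.22 (SE 0.09, adjusted p = 5.24e-14), *Tshz1* by 2.05, *Meis2* by 1.43 and *Etv1* by 0.84. *Six3*, which marked part of the negative cells, was also lower in neuroblasts than in dividing cells, by 2.39. *Six3*, *Dcx*, *Insm1*, *Vim* and *Nrp2* were chosen for this comparison after their values were seen. Among bulb subtype genes 6 of 7 rose, *Gng4* by 3.89, *Calb2* by 2.22 and *Synpr* by 1.81. The largest rises among genes of at least 50 CPM were in *Epha6*, an ephrin receptor gene (4.20), *Camk4*, a calcium-dependent kinase gene (3.94), *Arpp21* (3.73), the synaptotagmin gene *Syt6* (3.58), the noncoding RNA *Meg3* (3.52), *Pcdh15* (3.47), the netrin receptor gene *Unc5c* (3.38), *Pcdh7* (3.29), the gene model *Gm20754* (3.28) and *Lrrtm3*, a synapse organizer gene (3.27). *Meg3* gave 1390, 2510, 1240 and 3870 CPM against 153, 114, 120 and 393, with the highest values in replicate 2, whereas *Epha6* gave 102, 2.26, 149 and 1.16 CPM against 9.88, 0, 3.95 and 0 with far lower values in replicate 2.

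**Figure D3:**
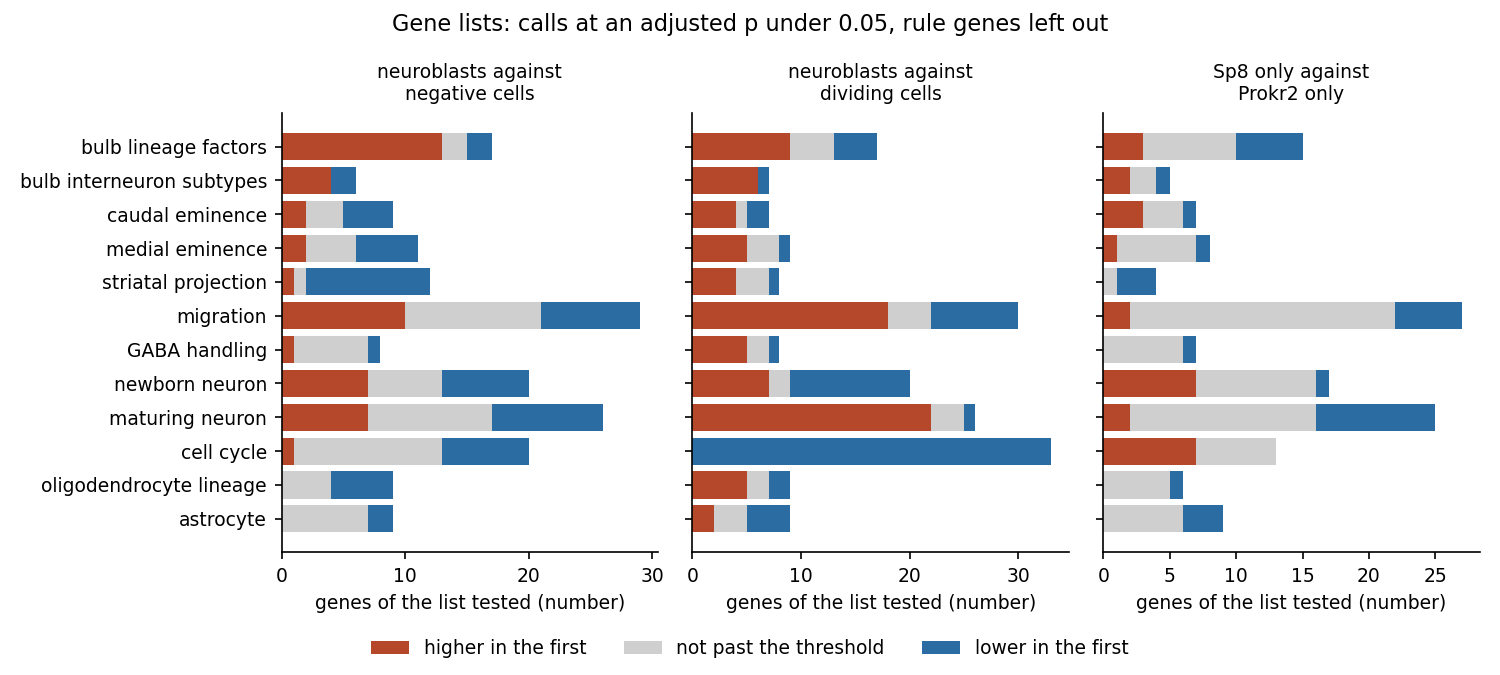
Bars count the tested genes of 12 lists that were higher (red), lower (blue) or not past an adjusted p of 0.05 (grey) in 3 comparisons, with genes of the rule left out. Bulb lineage factors were mostly higher (13 of 17) and striatal genes mostly lower (10 of 12) against negative cells, and all 33 cell cycle genes were lower against dividing cells. Some of these striatal and cell cycle genes passed the filter on low counts only through the other population.

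The third comparison asked how the members differ among themselves, between the 803 cells with *Sp8* UMIs only and the 290 with *Prokr2* UMIs only. Cells with *Sp8* only were higher in 7 of 13 cell cycle genes, *Ccnd2* among them, and in 7 of 17 newborn neuron genes, and cells with *Prokr2* only were higher in *Pbx3*, *Tshz1* and 9 of 25 maturing neuron genes. Of 8441 genes tested, 276 (3.27%) were higher and 465 (5.51%) lower in *Sp8*-only cells. The cells with *Prokr2* only numbered 124, 22, 122 and 22. Their median depth was 6010, 4522.5, 5946.5 and 5610 UMIs against 7576, 5468, 7356 and 5854.5 for *Sp8* only, and a cell with 1 UMI of either gene could fall in either group by sampling.

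Of 13 cell cycle genes tested 7 were higher in *Sp8*-only cells and 0 lower, with a median log2 change of 0.69 against -0.015 for all genes. *Ccnd2* (chr6:127125162-127152193, minus strand) gave 2470, 2610, 2720 and 2700 CPM in *Sp8*-only cells and 658, 778, 839 and 480 CPM in *Prokr2*-only cells. All *Sp8*-only values were far above all *Prokr2*-only values, and the change was 1.88 (SE 0.11, adjusted p = 3.3e-13). *Cdk4* was 0.69 and *Hmgb2* 0.77 higher, whereas *Mcm7*, a replication licensing gene, did not pass (0.18, adjusted p = 0.627). All the cells had 0 UMIs of *Mki67* and *Top2a* by the rule.

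Of 17 newborn neuron genes 7 were higher in *Sp8*-only cells and 1, *Sox4*, was lower (-0.37). *Insm1* gave 128, 88.3, 140 and 108 CPM in *Sp8*-only cells against 14.9, 17.9, 42.5 and 0, a change of 2.33 (SE 0.25, adjusted p = 4.21e-08). *Zic1*, a zinc-finger gene of septal and bulb progenitors (chr9:91358058-91365810, minus strand), gave 108, 497, 140 and 410 CPM against 9.94, 62.6, 17.3 and 109, a change of 2.82 (SE 0.20, adjusted p = 1.62e-11). *Zic1* was higher in replicate 2 than in replicate 1 in both groups, and within each library the *Sp8*-only value was the higher. *Zic2* was 1.91 higher, *Vim* 2.49, *Mdk*, a growth factor gene of the embryonic brain, 2.04, *Ezr*, a membrane-cytoskeleton linker gene, 1.97, *Clic1* 2.22, *Cacng5* 2.52, the long noncoding gene *E130114P18Rik* 2.99 and *Nfia* 1.52. *Calb2* was 1.48 higher by edgeR but did not pass with DESeq2 (adjusted p = 0.41), and *Prox1* was 1.15 higher but did not pass with thinned cells (adjusted p = 0.133).

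*Pbx3* (chr2:34171457-34373142, minus strand) gave 468, 260, 450 and 261 CPM in *Sp8*-only cells and 2220, 787, 1930 and 1060 in *Prokr2*-only cells, without overlap (log2 change -2.09, SE 0.11, adjusted p = 6.96e-15). *Tshz1*, a factor needed for the radial migration of bulb interneurons, gave 215, 202, 239 and 293 CPM against 672, 751, 610 and 1090 (-1.65, SE 0.11). *Foxp2* gave 147, 42.9, 72.8 and 93.8 CPM against 630, 340, 377 and 227 (-2.22, SE 0.14). All of these genes were thus several times more abundant beside *Prokr2* than beside *Sp8*. Of 15 bulb lineage factors 3 were higher and 5 lower in *Sp8*-only cells, with *Meis2* at -0.54 and *Sox11* at 0.47, and *Etv1* did not pass (-0.07, adjusted p = 0.815).

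Of 25 maturing neuron genes 2 were higher in *Sp8*-only cells, *Stmn2* among them (0.37), and 9 lower, with a median of -0.41. *Arpp21*, a calmodulin-regulated phosphoprotein gene, gave 86.7, 42.9, 71.5 and 44.0 CPM in *Sp8*-only cells and 371, 116, 369 and 320 in *Prokr2*-only cells (-2.26, SE 0.14, adjusted p = 5.72e-13). *Syt1* was lower by 1.47, *Lrrtm3* by 2.12, the axon guidance gene *Ntng1* by 2.26, the adhesion receptor gene *Adgrb1* by 2.33, *Foxp4* by 2.26 and *Cpne4* by 2.23. *Sfrp2*, which encodes a secreted Wnt modulator, was at 2.61, 0, 2.48 and 14.7 CPM against 52.2, 26.8, 42.5 and 84.2 (-3.88, SE 0.41). A gene this low in *Sp8*-only cells may have passed the filter on low counts through the *Prokr2*-only cells alone, which favours such a difference. *Erbb4* gave 2760, 179, 2250 and 129 CPM against 7750, 447, 6100 and 362 (-1.48, SE 0.11), *Adarb2* was lower by 1.34 and *Nrp2* by 1.38. *Gad1* did not pass (-0.01, SE 0.12, adjusted p = 0.991), nor did 6 of the 7 GABA genes tested, *Gad1* included. *Nfia*, *Tshz1*, *Syt1* and *Nrp2* were chosen here after their values were seen.

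Among markers of other cell types, of 9 astrocyte genes 0 were higher and 3 lower in *Sp8*-only cells (median -0.78), and of 6 oligodendrocyte genes 0 were higher and 1 lower (median -0.87). The astrocyte list summed to 266, 991, 222 and 1160 CPM in *Sp8*-only cells and 430, 965, 364 and 1470 in *Prokr2*-only cells, with *Apoe* the most abundant in both. The oligodendrocyte list summed to 65.5, 90.8, 99.2 and 185 CPM against 217, 89.4, 153 and 185. The vascular list, with no gene tested, summed to 11.2, 2400, 7.97 and 25.3 CPM in *Prokr2*-only cells, and *Rgs5* alone made up 1560 CPM of it in control replicate 2. Their part in the differences was not tested.

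The 676 cells with both genes took no part in that test. *Pbx3* gave 1490, 558, 1460 and 692 CPM in the cells with both and *Tshz1* 537, 576, 581 and 881, between the *Sp8*-only and *Prokr2*-only values in every library. So were *Ccnd2*, *Zic1*, *Nfia* and *Foxp2*, whereas *Arpp21* in control replicate 2 (168 CPM) was above both groups and *Insm1* in mutant replicate 1 (41.2 CPM) below both. All 8 genes had been called between those groups, a choice that makes values between them more likely. Cells with both were intermediate in median depth in 4 of 4 libraries, at 6882, 5038.5, 6734 and 5853 UMIs, in mutant replicate 2 by little.

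**Figure D4:**
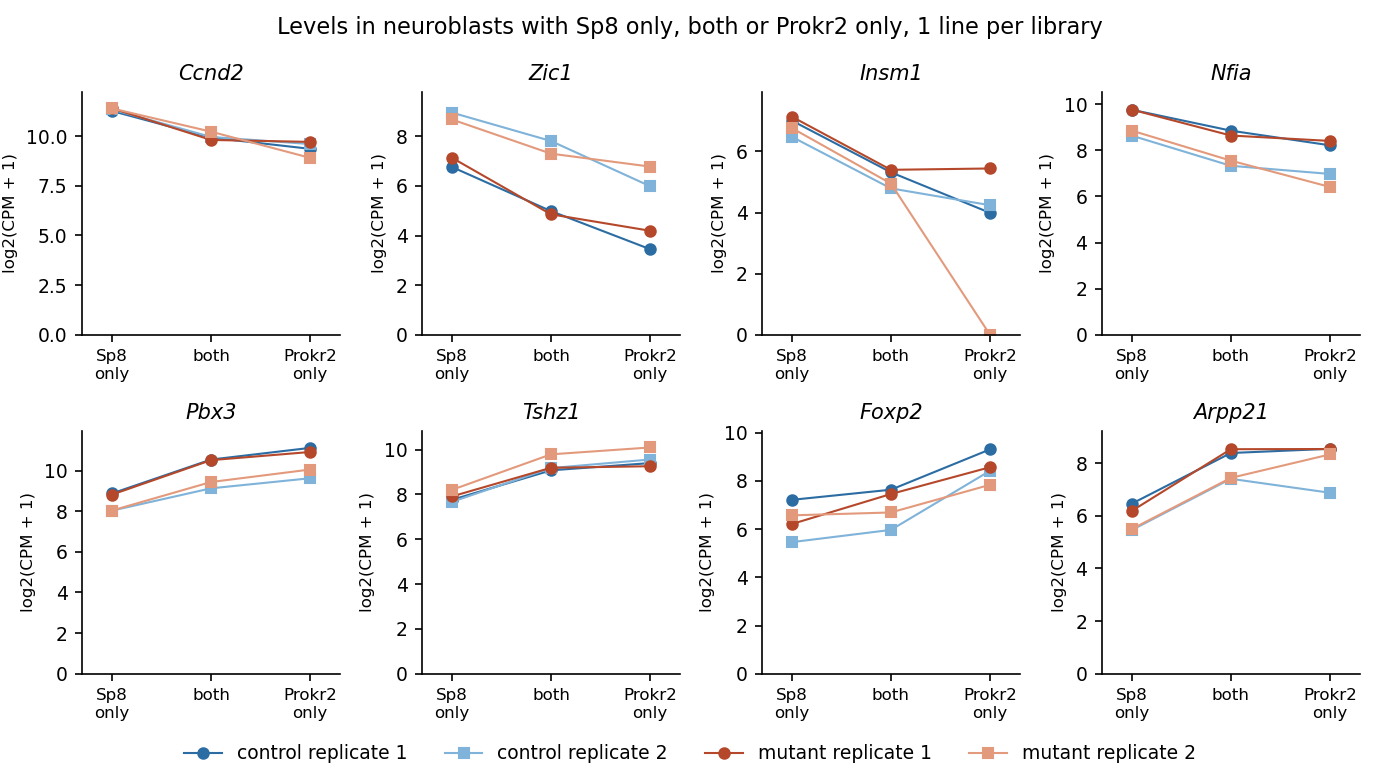
Lines join the level, as log2(CPM + 1) of summed UMIs, of 8 genes in neuroblasts with *Sp8* only, both genes or *Prokr2* only, 1 line per library. *Ccnd2*, *Zic1*, *Insm1* and *Nfia* went down and *Pbx3*, *Tshz1*, *Foxp2* and *Arpp21* went up from *Sp8* only to *Prokr2* only in each library.

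The last comparisons concerned the *Chd8* genotype. No gene passed the threshold in the neuroblasts, in a fit without a replicate term. Of 11766 genes tested outside the rule, 0 were higher (0%) and 0 lower (0%) in mutants by edgeR at an adjusted p under 0.05, 6 had an unadjusted p under 0.05, and DESeq2 also called 0, with 1 such gene. The fit with replicate number, and so the software version, as a term called 1 gene (0.0085%), and 349 had an unadjusted p under 0.05. The median absolute log2 difference between the control replicates was 0.549, against genotype differences of 0.146 within replicate 1 and 0.337 within replicate 2. In the fit without the term this gap between replicates counted as spread. Its common dispersion, the fitted relative variance beyond counting error, was 0.225, against 0.00517 in the library-blocked comparison with negative cells. The 0 calls therefore do not show that the genotype had no effect. Across all 11774 genes 23.4% were higher in the mutant in both replicates and 25.7% lower in both.

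*Chd8* itself (chr14:52198151-52257780, minus strand) gave 93.7, 128, 109 and 164 CPM. The mutant was the higher in both replicates, by 0.19 and 0.32 (pooled log2 change 0.27, SE 0.32, adjusted p = 1). The floxed exons lie inside the gene, away from the 3′ end that the library kit tags, so that this level does not check the deletion. By immunoblot the study found less CHD8 protein in sorted tdTomato-positive cells of mutant embryos than in those of controls. Of 5 genes taken from those that the study names for inhibitory neurons, *Dlx1* belongs to the rule and was not tested, and 0 of the other 4 were called. The study called *Auts2*, *Nrxn3* and *Gphn* by a rank-sum test over single cells of its inhibitory neuron cluster. It used *Gad1* as a marker of mature cells and stained the DLX1 protein in embryos. Sums per library of 1 subset of cells are another measure, so that the 0 calls cannot be set against those results. *Slc32a1*, which the study also names, in adult interneurons, was tested with the GABA list, of which 0 of 8 genes were called. *Gad1* differed by -0.07 (SE 0.50), *Auts2*, a neurodevelopmental gene, by -0.18, *Nrxn3*, a presynaptic adhesion gene, by -0.19 and *Gphn*, the scaffold gene of inhibitory synapses, by -0.18. *Nrxn3* gave 18100, 1460, 16000 and 1500 CPM, far apart between replicates and close between genotypes. The genes with an unadjusted p under 0.05 were *Snhg11*, *Npy* and *Zfp65*, lower in mutants, and *Sox10*, *Stard4* and *S100a13*, higher, all at an adjusted p of 1.

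By list, medians stayed near that of all genes (-0.012) for bulb lineage factors (0.092, with -0.0015 within replicate 1 and 0.23 within replicate 2), migration genes (0.011) and newborn neuron genes (0.083). For the counts by direction that follow, the shares over all 11774 genes were 23.4% higher in both replicates and 25.7% lower in both. The cell cycle list was at 0.13 (0.081 within replicate 1 and 0.22 within replicate 2), with 9 of 26 genes higher in both replicates and 4 lower in both. Medians were lower for bulb subtype genes (-0.27, but 0.084 within replicate 1), medial eminence genes (-0.21, 5 of 8 lower in both replicates and 1 higher), GABA genes (-0.17, 4 of 8 lower in both and 1 higher) and caudal eminence genes (-0.17), with 0 genes called. Of 26 maturing neuron genes 13 were lower in mutants in both replicates and 0 higher in both (median -0.18). The largest median among lists with at least 5 genes tested was that of the oligodendrocyte genes, at 0.85 (0.58 within replicate 1 and 0.64 within replicate 2), with 8 of 9 higher in both replicates. *Sox10*, which specifies that lineage, was at 2.20, 1.13, 10.4 and 6.96 CPM. In mutant replicate 1, 23 of the 54 *Sox10* UMIs came from 1 cell. The part of stray oligodendrocyte RNA in the list's values was not tested.

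**Figure D5:**
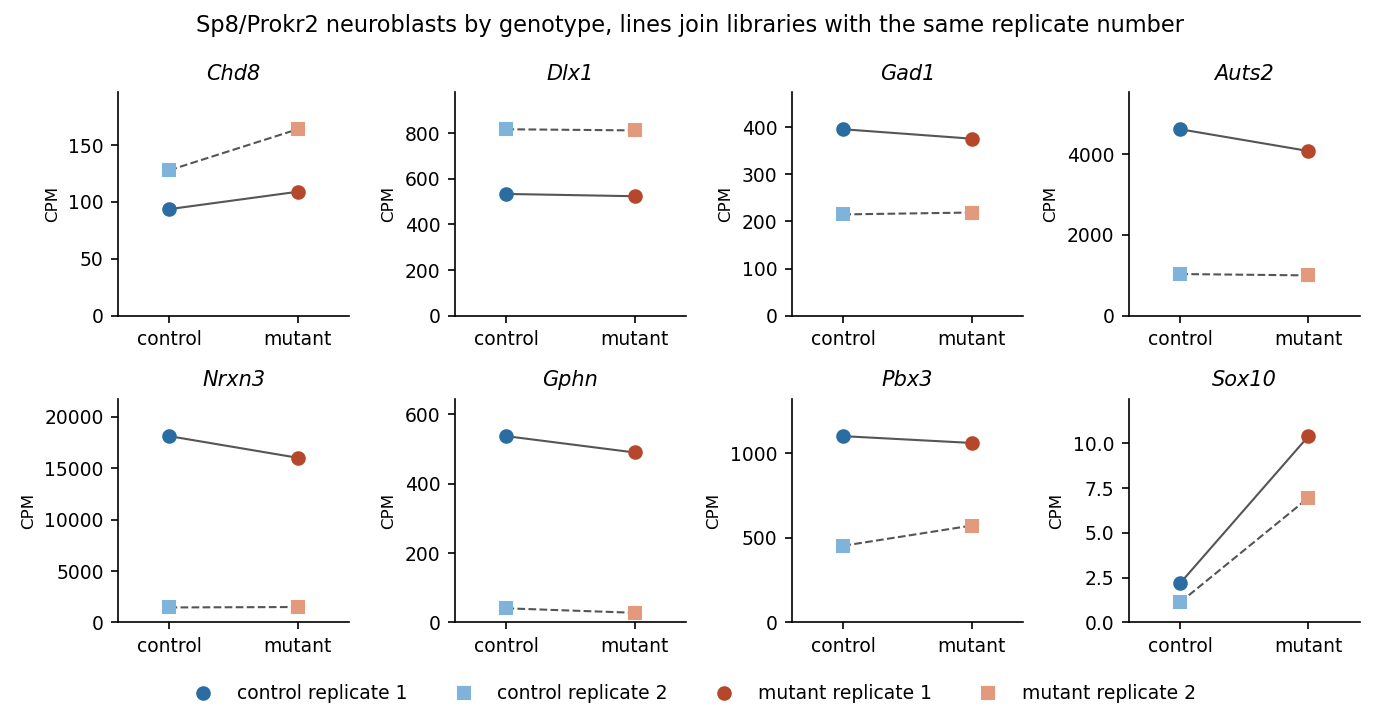
Points give CPM of summed UMIs in the neuroblasts of each library for *Chd8*, 5 genes named for inhibitory neurons, *Pbx3* and *Sox10*, with lines joining the control and the mutant of the same replicate number. The replicates lay farther apart than the genotypes for *Nrxn3*, *Auts2*, *Gphn* and *Pbx3*, and *Sox10* was higher in both mutants.

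Whether the genotype acted differently in the neuroblasts than in negative cells was tested as an interaction. Of 10614 genes 8 (0.0754%) had a more positive and 6 (0.0565%) a more negative mutant effect in neuroblasts, and DESeq2 called 0 (15 at an unadjusted p under 0.05). *Reln* was the only one of the 14 with the same sign in both replicates at more than a log2 difference of 1 in each, apart from the haemoglobin gene *Hba-a1*. *Reln* was lower in mutant than in control negative cells (15.5 against 108 CPM in replicate 1 and 9.81 against 81.3 in replicate 2), while neuroblasts held 3.07 CPM or less. 69 of the 205 *Reln* UMIs of control replicate 1 and 23 of the 27 of control replicate 2 came from 1 negative cell each, and the call was lost without mutant replicate 1 or control replicate 1.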

How the data were processed

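The authors prepared 3′ gene expression libraries from sorted tdTomato-positive cells (10x Genomics) and deposited filtered matrices of raw UMI counts per gene and barcode, aligned to mm10. The submitters' notes name Cell Ranger 3.0, whereas the matrix headers name versions 7.0.0 and 5.0.1. From these counts cells were chosen by the rule given in the report, and no doublet caller was run. The members and gene lists were chosen with earlier results of these data known. UMIs were summed per library and population. Libraries held 46274374 to 79328841 UMIs.

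Sums were tested with edgeR 4.0.16 (quasi-likelihood, filterByExpr, TMM, Benjamini-Hochberg adjustment) in R 4.3.3, with a library block between populations of the same libraries and no block between genotypes. The count filter used all sums of a comparison, so that a gene could pass through 1 population alone, which largely fixed its direction. DESeq2 1.42.0 was an alternative, as were library-total scaling, no or a stricter count filter, a 5% mitochondrial limit, thinning to 2000 UMIs, stricter rules, a replicate block and leaving out each library. The edgeR script was tested on simulated data. Shares were compared by exact permutation over 6 assignments of libraries. SE is that of the log2 change, and values at 0 CPM make a log2 change depend on the prior count of 2.

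Genes named were, per list, up to 4 with the highest mean CPM and, per direction, up to 10 with the largest change among calls with 1 direction in all 4 libraries and at least 50 CPM, with the 6 genes taken from the study for the genotype. Gene positions were read from GENCODE vM21, in which 32158 of 32285 genes matched. Cells called other types by 1 gate each (microglia with at least 5 UMIs of their genes) served as background.

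Replicate numbers were not used as pairs: with 2 pairs the correlation of deviations from group means was 0.809, but no label ties a number to a shared day or litter, although the headers give each number its own software version. Some genes are not reported here.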

Additional observations from a re-analysis of the deposited data

Results flagged for a closer look

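For 14 genes the mutant effect differed between neuroblasts and negative cells by the edgeR interaction test. The difference was more positive in neuroblasts for *Cxcl2* (adjusted p = 0.00171), *Fcer1g* (0.00427), *Reln* (0.00427), *C1qc* (0.00437), *Ccl2* (0.0138), *Pf4* (0.0272), *C1qa* (0.0276) and *C1qb* (0.0276). It was more negative for *Hs6st3* (adjusted p = 9.24e-07), *Thsd7b* (0.000114), *Chrm2* (0.00674), *Hba-a1* (0.00719), *Hbb-bs* (0.0135) and *Gpc6* (0.0173). Several of these rested on few cells. In mutant replicate 1 all 55 *Cxcl2* UMIs and all 116 *Ccl2* UMIs of the neuroblasts came from 1 cell each, the 71 *C1qa* UMIs came from 2 cells, and the 435 *Hbb-bs* UMIs of the negative cells came from 3 cells. *Cxcl2*, *Ccl2*, *Fcer1g*, *Pf4* and the C1q genes belong to microglia and other immune cells, and *Hba-a1* and *Hbb-bs* to erythrocytes. The part of such cells or their RNA in these calls was not tested.

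Among barcodes of sufficient depth that were left out for over 10% mitochondrial UMIs, some met every other part of the rule. There were 11 such barcodes of 872 in control replicate 2, 4 of 257 in mutant replicate 1 and 5 of 886 in mutant replicate 2, with 2 of 158 in control replicate 1. The count was above the 3 that a count of 0 allows in the first 3 of these libraries. As a share of the barcodes left out they were 1.27% and 1.26% in the controls and 1.56% and 0.564% in the mutants (replicate 1 first), below the neuroblast share of passing cells in each library (13%, 5.48%, 12.7% and 4.42% in the same order), and no comparison used them.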

How the results depend on the processing

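Of the genes named and called in the comparisons with negative and dividing cells and between the neuroblast subsets, none was reversed under any alternative run. The 2079 calls against negative cells became 919 with DESeq2, 748 with thinned cells and 993 (without control replicate 1) to 2013 without 1 library, and 1045 without mutant replicate 1. The 7326 calls against dividing cells became 3744 with thinned cells and 4725 (without control replicate 1) to 7262 without 1 library. The 741 subset calls became 304 with DESeq2, 393 with thinned cells and 307 (without control replicate 1) to 891 without 1 library, and 324 without mutant replicate 1. The cause was not tested, but thinning and leaving out a replicate 1 library removed many of the UMIs by construction. *Tubb2b* against negative cells lost its call without either replicate 1 library, and *Stmn2* between the subsets without either of them or mutant replicate 2.

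For genotype, the fit with a replicate block called 1 gene (349 at an unadjusted p under 0.05), the fit without a count filter 2, and the other alternatives 0. The difference in share of passing cells ran from -4.82 to 3.47 points without 1 library. The difference in share among non-dividing inhibitory cells, 6.47 points, was 2.35 with thinning before the rule. The 14 interaction calls became 0 with DESeq2, 0 with thinned cells (238 at an unadjusted p under 0.05), 33 without a count filter, 5 (without mutant replicate 1) to 43 (without mutant replicate 2) without 1 library, and 23 without control replicate 2. Of the 14, 0 were kept without mutant replicate 1 and 1 without control replicate 1. Left-out libraries gave log2 interaction ranges that crossed 0 for *Hs6st3* (-3.36 to 0.0357), *Thsd7b* (-3.8 to 1.17), *Chrm2* (-4.29 to 1.55), *Hbb-bs* (-7.13 to 1.82) and *Ccl2* (-0.238 to 8.64). The sums of negative cells held 332114 and 203779 UMIs in replicate 2 against 1892225 and 1419479 in replicate 1.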
